A study of Mus musculus with 25 samples.

Results

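The genes described here are 10 genes that handle mineral ions in and around cells. They are *Slc20a1* and *Slc20a2*, *Ank*, *Enpp1*, *Phospho1*, *Slc13a5*, *Slc8a3*, *Hrc*, *Car3* and *Sgms2*. They were picked by gene symbol from the 37406 genes of the expression table, and each symbol had 1 row. No source states which values led to the choice, but the difference between the posterior oral and posterior nasal compartments is the most likely one, so values from that contrast are given as a description with no test. The same holds for *Enpp1* in the anterior oral and nasal, the anterior lateral and medial and the posterior and anterior contrasts, and for *Ank* in the anterior lateral and medial contrast, where the study lists these genes.

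The samples were wild type CD1 mouse embryos at stage E14.5 (embryonic day), soon after the palatal shelves meet at the midline. Laser capture microdissection cut the palate into medial, lateral, oral and nasal compartments, each from the anterior and the posterior palate, and RNA-seq was run on 25 libraries. There were 3 libraries of each of the 8 compartments, with 4 for anterior nasal. No treatment or mutation was involved, so the comparisons are between places in normal tissue. The medial and lateral pieces and the oral and nasal pieces come from cuts in different directions, so these compartments overlap in the tissue they hold. Values are RPKM, reads scaled to the length of the gene and to the depth of the library, a scale on which levels of different genes can be set side by side.

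The values themselves imply a depth of 1.64 to 6.56 M reads (median 3.27 M). The study states a far higher average number of reads per sample, and it removed duplicate reads and reads that aligned more than once. The implied and the stated depth were not reconciled. At the median depth, 1 read on a gene of 2000 bases was worth 0.153 RPKM, and counting alone gave a coefficient of variation of 17.5% at 5 RPKM. Replicates correlated across genes at 0.874 to 0.931 in posterior nasal and at 0.612 to 0.839 in posterior medial, the compartment with the widest spread. The 25 libraries came from 8 sequencing runs. Within the lateral and medial contrasts no run held both compartments, so run and compartment cannot be told apart there.

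Bone forms when osteoblasts lay down collagen and fill it with calcium phosphate. Inorganic phosphate feeds the mineral and pyrophosphate blocks its growth, so transporters and enzymes that set the balance of these ions decide where mineral can form. The bone of the hard palate forms from condensed mesenchyme of the palatal shelves, without a cartilage model. *Slc20a1* and *Slc20a2* (also known as Pit1 and Pit2) carry phosphate into cells with sodium, *Ank* exports pyrophosphate or its precursor, and *Enpp1* makes pyrophosphate outside the cell from nucleotide triphosphates. *Phospho1* releases phosphate from phosphocholine and phosphoethanolamine inside matrix vesicles, and *Sgms2* makes sphingomyelin at the plasma membrane. *Slc13a5* imports citrate, a component of bone mineral, with sodium. *Slc8a3* is a sodium-calcium exchanger, *Hrc* binds calcium in the sarcoplasmic reticulum of muscle, and *Car3* is a carbonic anhydrase abundant in muscle and fat.

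In the coordinates of the table, which are those of mouse build mm9, *Slc13a5* lies at chr11:72055496-72080724 and *Phospho1* on the same chromosome at chr11:95685814-95693454. *Car3* is at chr3:14863538-14872373 and *Sgms2* at chr3:131021904-131047841. *Hrc* is at chr7:52590639-52594342, *Slc8a3* at chr12:82298902-82434167 and *Enpp1* at chr10:24361217-24431908. *Ank* is at chr15:27396432-27524662, *Slc20a1* at chr2:129024509-129037348 and *Slc20a2* at chr8:23587172-23680088. The 10 genes are thus spread over 8 chromosomes, and the pairs on chromosomes 3 and 11 lie far apart.

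RefSeq (GRCm38.p6) gave the sequence before the transcript start of 8 of the 10 genes, in 15 windows of 250 bases, since some genes have several starts. The windows printed are those of *Hrc*, *Slc8a3* and *Phospho1*, which have 1 start each and were highest in posterior nasal, the most upstream one of *Sgms2*, which has the same pattern of levels, and that of *Enpp1*, which has the opposite one between oral and nasal. All read 5′ to 3′ on the strand of the gene, and capitals mark the hexamer TGTGGT, part of the sequence that Runx factors bind, or its reverse complement ACCACA.
*Hrc* (chr7:45335019-45335268, plus strand): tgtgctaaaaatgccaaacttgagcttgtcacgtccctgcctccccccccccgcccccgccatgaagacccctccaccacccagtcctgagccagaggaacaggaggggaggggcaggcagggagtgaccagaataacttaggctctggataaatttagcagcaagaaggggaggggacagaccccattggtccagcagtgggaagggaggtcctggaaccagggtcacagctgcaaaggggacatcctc
*Slc8a3* (chr12:81333181-81333430, minus strand): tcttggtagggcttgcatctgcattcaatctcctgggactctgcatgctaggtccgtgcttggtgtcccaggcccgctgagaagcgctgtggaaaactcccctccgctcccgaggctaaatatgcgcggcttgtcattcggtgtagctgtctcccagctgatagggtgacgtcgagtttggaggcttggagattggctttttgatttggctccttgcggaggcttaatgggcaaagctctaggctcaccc
*Phospho1* (chr11:95824250-95824499, plus strand): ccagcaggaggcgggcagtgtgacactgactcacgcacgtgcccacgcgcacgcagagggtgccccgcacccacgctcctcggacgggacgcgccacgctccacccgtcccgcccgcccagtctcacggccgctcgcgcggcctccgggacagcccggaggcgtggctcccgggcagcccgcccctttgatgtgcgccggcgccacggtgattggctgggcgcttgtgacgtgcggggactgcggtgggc
*Sgms2* (chr3:131491444-131491693, minus strand): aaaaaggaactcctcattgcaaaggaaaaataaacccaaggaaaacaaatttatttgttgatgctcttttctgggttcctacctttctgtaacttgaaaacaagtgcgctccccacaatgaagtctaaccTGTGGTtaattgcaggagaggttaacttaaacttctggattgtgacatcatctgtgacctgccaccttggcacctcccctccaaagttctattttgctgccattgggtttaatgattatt
*Enpp1* (chr10:24712160-24712409, minus strand): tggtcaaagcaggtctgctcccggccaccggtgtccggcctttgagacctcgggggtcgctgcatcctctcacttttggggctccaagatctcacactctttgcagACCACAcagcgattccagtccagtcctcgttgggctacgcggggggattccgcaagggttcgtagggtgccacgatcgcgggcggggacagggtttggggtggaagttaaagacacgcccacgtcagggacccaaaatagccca
The hexamer stood on either strand in 3 of the 15 windows, 1 each of *Slc20a1*, *Sgms2* and *Enpp1*. Of all 32851 RefSeq windows of this length, 14% held it. *Sgms2* has several windows, and the printed one was the only one of them with the hexamer. The other window of *Slc20a1* lacked it. Which start gave the RNA measured here was not tested. The hexamer TAATTA, part of the sequence that many homeodomain factors bind and its own reverse complement, stood in 0 of the 15 windows and in 4.84% of all windows. The 3 genes with a match include 1 of even level across the palate, 1 highest in posterior nasal and 1 higher in oral than in nasal.

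The 10 genes fell into 3 patterns of level. For 6 of them, *Slc13a5*, *Sgms2*, *Slc8a3*, *Hrc*, *Car3* and *Phospho1*, all 3 posterior nasal libraries stood above all 22 libraries of the other compartments. Of the 11913 genes that reached 5 RPKM in 3 libraries or more, 1.15% stood so. The choice of the 10 genes most likely used the posterior nasal level, so nothing is read from this count. *Slc20a1*, *Slc20a2* and *Ank* were present in every library with compartment means that differed by at most 2.56-fold. *Enpp1* was high in anterior oral, anterior lateral and posterior oral and low elsewhere.

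**Figure D1:**
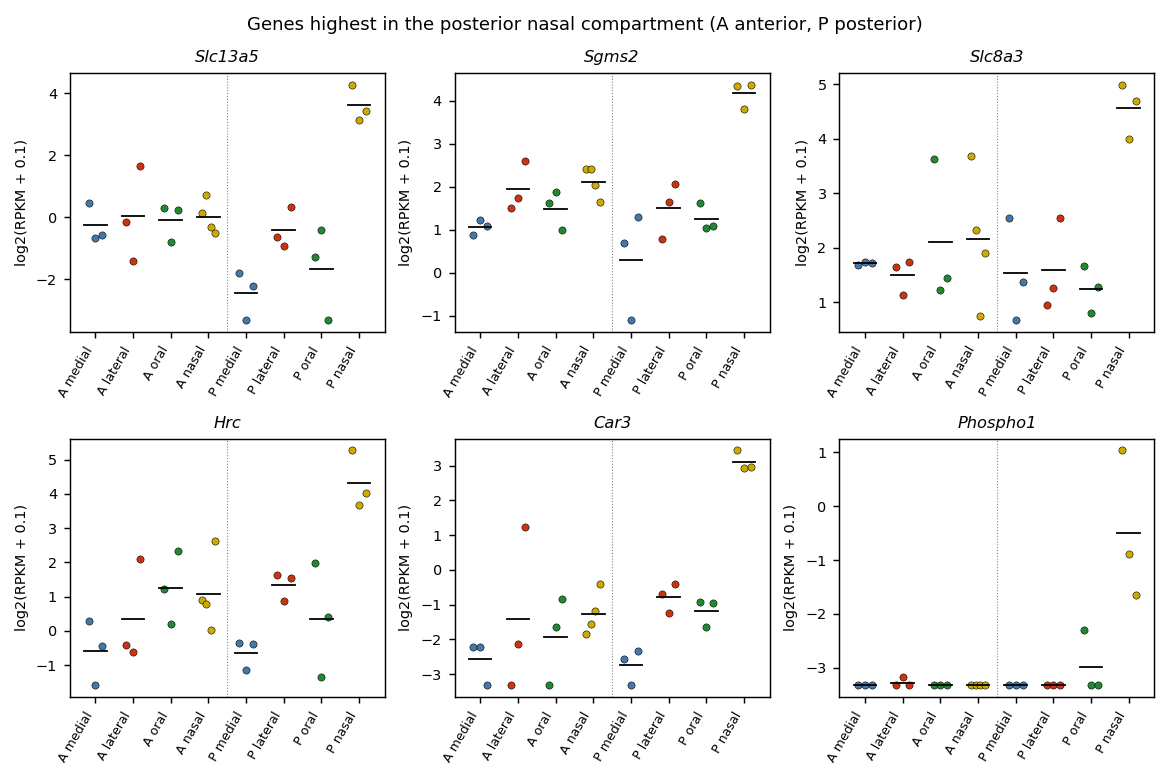
Level of the 6 genes that were highest in posterior nasal, as log2(RPKM + 0.1) in each library. Points are libraries (3 per compartment, 4 for anterior nasal), bars are compartment means, and the dotted line parts anterior from posterior. In every panel the 3 posterior nasal points stand above the other 22.

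*Slc13a5*, the citrate importer, was at 19.3, 8.76 and 10.7 RPKM in the 3 posterior nasal libraries and at 0.311, 0.656 and 0 RPKM in posterior oral. The compartment mean was 12.9 ± 5.58 RPKM (SD, n = 3) in posterior nasal and 0.322 ± 0.328 RPKM (SD, n = 3) in posterior oral, a 40.1-fold ratio and a log2 difference, oral minus nasal, of -5.29. The groups did not overlap. Outside posterior nasal the median library was at 0.583 RPKM, and the highest, anterior lateral 3, at 3.08 RPKM, so that the lowest posterior nasal library stood 2.84-fold above it. The log2 difference depended on the constant added before taking logs, being -3.35 with 1 RPKM and -6.57 with 0.01 RPKM.

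*Sgms2*, the sphingomyelin synthase, was at 20.03, 13.9 and 20.5 RPKM in posterior nasal and at 2.97, 1.96 and 2.01 RPKM in posterior oral. The means were 18.1 ± 3.69 and 2.32 ± 0.570 RPKM (SD, n = 3 each), a 7.82-fold ratio. Unlike *Slc13a5*, this gene was above 0 in all 25 libraries, with a median of 2.83 RPKM outside posterior nasal. Its next compartment, anterior nasal, held 5.20, 5.19, 3.98 and 3.01 RPKM, and its single highest library outside posterior nasal was again anterior lateral 3, at 5.97 RPKM.

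*Slc8a3*, the sodium-calcium exchanger, was at 31.6, 15.9 and 25.8 RPKM in posterior nasal and at 3.07, 1.65 and 2.34 RPKM in posterior oral. The means were 24.4 ± 7.93 and 2.35 ± 0.708 RPKM (SD, n = 3 each), a 10.4-fold ratio. Of the 6 genes it had the narrowest gap. Anterior nasal 1 reached 12.8 RPKM and anterior oral 1 reached 12.3 RPKM, both from 1 sequencing run. The other 5 libraries of those compartments lay between 1.58 and 4.89 RPKM, and the highest of these, anterior nasal 2, came from the same run. Anterior nasal 1 and anterior oral 1 had the lowest implied depths of all libraries, 2.16 and 1.64 M reads. The part of run and depth was not tested. With each library centred on its median, posterior nasal no longer stood above all others for *Slc8a3*.

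*Hrc*, the calcium-binding protein of the sarcoplasmic reticulum, was at 38.6, 12.7 and 16.2 RPKM in posterior nasal and at 3.83, 0.297 and 1.23 RPKM in posterior oral. The means were 22.5 ± 14.0 and 1.78 ± 1.83 RPKM (SD, n = 3 each), a 12.62-fold ratio. Posterior nasal 1 was thus more than the other two together, and the lowest of the 3 still stood 2.08-fold above the highest other library, anterior nasal 4, at 6.11 RPKM.

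*Car3*, the carbonic anhydrase, was at 10.8, 7.58 and 7.60 RPKM in posterior nasal and at 0.425, 0.221 and 0.412 RPKM in posterior oral. The means were 8.64 ± 1.83 and 0.353 ± 0.114 RPKM (SD, n = 3 each), a 24.5-fold ratio. *Car3* was the 1 gene of the 10 whose values came in whole steps of a read, in 17 of the 21 libraries where it was above 0. In those steps posterior nasal held about 172, 77 and 50 reads, and the other 22 libraries held 0 to 15 reads. The 15 reads were in anterior lateral 3, at 2.23 RPKM, and no other library outside posterior nasal was above 0.654 RPKM.

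*Phospho1*, the phosphatase of matrix vesicles, was the lowest of the 10 genes. It was at 1.95, 0.441 and 0.219 RPKM in posterior nasal, at 0.104 RPKM in posterior oral 1 and at 0.0109 RPKM in anterior lateral 2, and it was listed at 0 in the other 20 libraries. The 3 posterior nasal libraries therefore held nearly all of its signal, at levels where a few reads decide the value. The log2 difference between posterior oral and nasal was -2.48, but -0.74 with 1 RPKM added and -4.71 with 0.01 RPKM added. Under quantile normalization posterior nasal no longer stood above all other libraries for this gene.

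In sum for posterior oral and nasal, 7 of the 10 genes had groups that did not overlap, 6 lower and 1, *Enpp1*, higher in oral. Over all 10587 genes tested in that contrast, 11.9% did not overlap, 5.65% lower and 6.21% higher in oral. Since the genes were most likely chosen on this contrast, nothing is read from the count. The oral and nasal libraries shared 2 sequencing runs, 1 with 1 library of each and 1 with 2 oral libraries and 1 nasal. All 7 genes kept their direction in both, as genes whose groups do not overlap must, so nothing is read from it. For *Slc13a5* the log2 differences in the runs were -5.56 and -5.01, for *Car3* -4.37 and -4.24, and for *Sgms2* -2.71 and -2.74.

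The anterior palate was a separate set of libraries for the same question. There, 0 of the 9 genes tested were called by limma between oral and nasal, and 0 were below an unadjusted p of 0.05. Over all 10690 genes tested, 0% were called and 2.97% were below an unadjusted p of 0.05. *Slc13a5* was at 0.892 ± 0.367 RPKM in anterior oral (SD, n = 3) and 0.966 ± 0.431 RPKM in anterior nasal (SD, n = 4), a log2 difference of -0.10 ± 0.40 (SE). *Slc8a3* differed by -0.07 ± 0.78 and *Hrc* by 0.17 ± 0.68 (SE) on the same scale. *Sgms2* had the largest difference of the 6 relative to its error, at -0.63 ± 0.31 (SE), with 2.95, 3.57 and 1.89 RPKM in oral against the anterior nasal values given above. All adjusted p-values of limma were 1.00. *Phospho1* was listed at 0 in all 7 libraries. Whether the oral and nasal difference itself differed between anterior and posterior was not tested, since the posterior values most likely chose the genes.

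**Figure D2:**
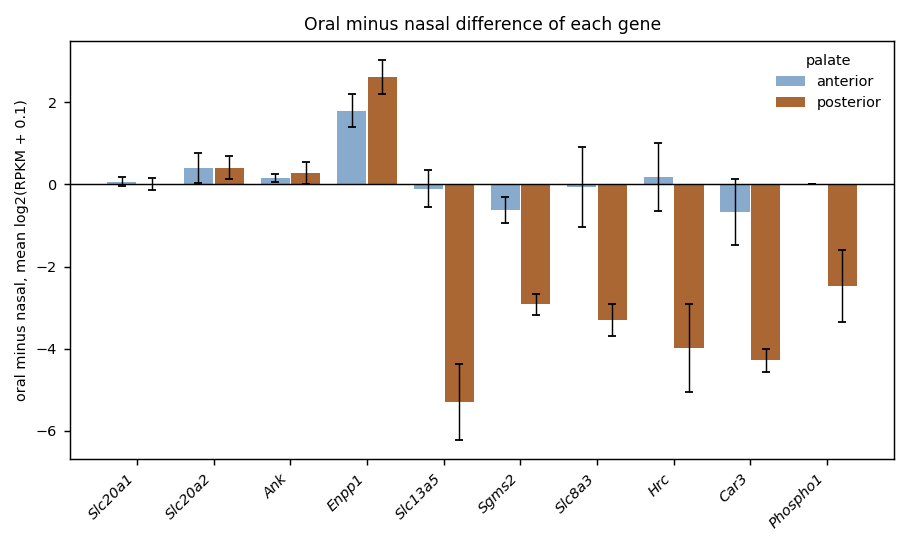
Oral minus nasal difference of each gene in the anterior (3 against 4 libraries) and the posterior palate (3 against 3), as the difference of mean log2(RPKM + 0.1). Error bars are standard errors from the spread of the libraries in each group. The posterior bars of the 6 genes at the right reach from -2.48 to -5.29, while their anterior bars lie between -0.68 and 0.17.

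*Enpp1*, which makes pyrophosphate, ran the other way between oral and nasal. It was at 10.9, 14.0 and 14.8 RPKM in posterior oral and at 2.92, 2.57 and 1.15 RPKM in posterior nasal, and at 10.7, 16.0 and 27.5 RPKM in anterior oral against 5.99, 4.40, 4.11 and 4.77 RPKM in anterior nasal. Neither pair of groups overlapped. The ratio of means, oral over nasal, was 5.97 in posterior and 3.75 in anterior. Oral was the higher in each of the 5 comparisons within a sequencing run, which had to be so since the groups did not overlap. Among genes tested in the anterior contrast, 3.67% did not overlap.

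The lateral and medial pieces added a second axis for *Enpp1*. Anterior lateral held 21.6, 11.8 and 16.1 RPKM and anterior medial 3.17, 5.27 and 6.88 RPKM, with no overlap and a 3.22-fold ratio of means. In that contrast 21.3% of all 10433 genes tested did not overlap. Posterior medial was the lowest compartment of all, at 0.431, 0 and 1.57 RPKM. Posterior lateral was split, with 10.7 RPKM in replicate 2 against 0.440 and 2.23 RPKM in replicates 1 and 3. By compartment mean the order was anterior oral 18.1, anterior lateral 16.5, posterior oral 13.2, anterior medial 5.11, anterior nasal 4.82, posterior lateral 4.46, posterior nasal 2.21 and posterior medial 0.667 RPKM. The ranges of neighbours in this order overlapped except between posterior oral and anterior medial. Posterior nasal, the place where the other 6 genes peaked, was thus next to the bottom for *Enpp1*.

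**Figure D3:**
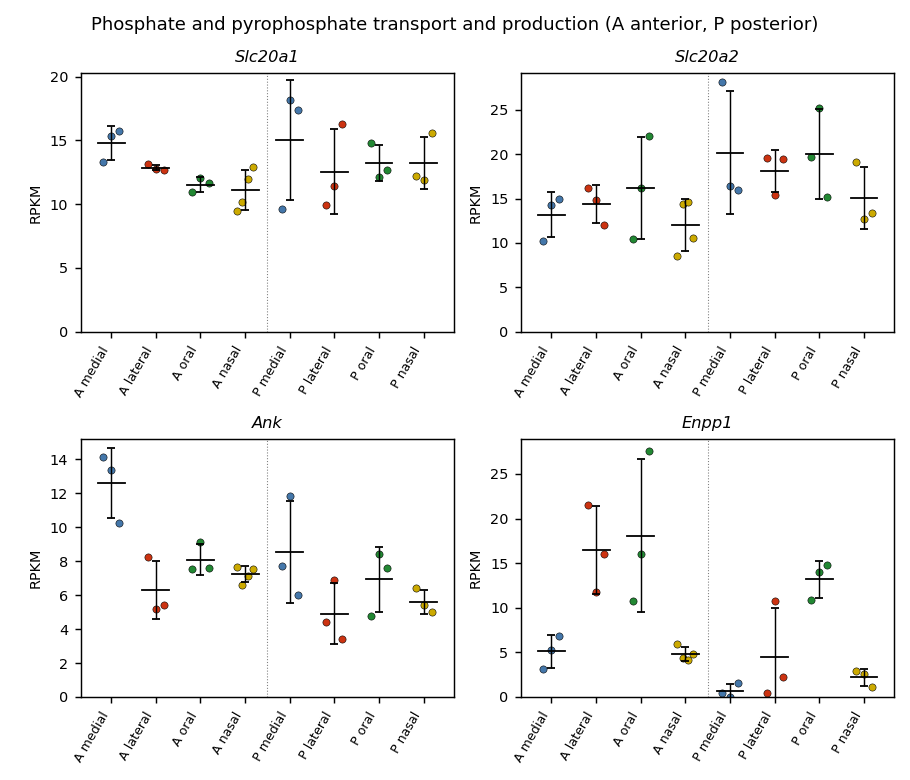
Level of the phosphate importers Slc20a1 and Slc20a2, of Ank and of Enpp1 in RPKM, with a linear axis from 0. Points are libraries, horizontal bars are compartment means and error bars are SD (n = 3, and 4 for anterior nasal). Compartment means of Slc20a1 lie between 11.1 and 15.0 RPKM, while those of Enpp1 run from 0.667 to 18.1 RPKM.

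The 2 phosphate importers were present everywhere. *Slc20a1* lay between 9.49 and 18.1 RPKM in single libraries, with compartment means from 11.1 ± 1.56 RPKM in anterior nasal (SD, n = 4) to 15.0 ± 4.69 RPKM in posterior medial (SD, n = 3). Posterior nasal, at 12.2, 11.9 and 15.5 RPKM, and posterior oral, at 14.8, 12.1 and 12.7 RPKM, differed by 0.01 on the log2 scale. *Slc20a2* lay between 8.52 and 28.1 RPKM, with means from 12.0 ± 2.97 RPKM in anterior nasal (SD, n = 4) to 20.2 ± 6.90 RPKM in posterior medial (SD, n = 3). Every pair of neighbours in the order of means overlapped for both genes, but some pairs further apart did not. *Slc20a1* was at 13.3 to 15.7 RPKM in anterior medial and 12.7 to 13.1 RPKM in anterior lateral, a log2 difference, lateral minus medial, of -0.20 ± 0.12 (SE) with an adjusted p of 0.495 by limma. For *Slc20a2* the posterior medial, lateral and oral libraries, at 15.2 RPKM or more, all stood above those of anterior medial and anterior nasal, at 14.9 RPKM or less. At posterior nasal the importers, at means of 13.2 and 15.1 RPKM, stood at about the level of *Slc13a5* and *Sgms2*, whose levels elsewhere were far lower.

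*Ank*, the pyrophosphate exporter, was also present in every library, from 3.42 to 14.2 RPKM. Anterior medial was its highest compartment, at 14.2, 13.4 and 10.3 RPKM, and stood above anterior lateral, at 8.27, 5.21 and 5.44 RPKM, with no overlap and a 2.00-fold ratio of means. Posterior medial, at 7.74, 11.9 and 6.02 RPKM, was above posterior lateral, at 4.41, 6.92 and 3.42 RPKM, by a 1.74-fold ratio of means, with overlapping groups and an adjusted p of 0.957 by limma. Posterior nasal held 6.40, 5.45 and 5.001 RPKM. *Krt14*, a keratin of basal epithelium, was at 29.2 to 51.0 RPKM in anterior medial and 5.97 to 11.4 RPKM in anterior lateral. It was the 1 epithelial marker of the 4 that passed the minimum to be called by limma, and *Krt8*, a keratin of simple epithelium, had the opposite sign, at means of 2.89 and 7.75 RPKM. The summed level of the 8 epithelial markers, 51.0 to 99.5 RPKM in medial and 34.0 to 56.1 RPKM in lateral, overlapped. The part of epithelium in the level of *Ank* was not tested.

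In the lateral and medial contrasts, 0 genes of the set were called by limma. In anterior palate 8 were tested, 2.49% of all genes were called, and 1 gene of the set, *Sgms2*, was below an unadjusted p of 0.05, against 15% of all genes. *Sgms2* was at 2.72, 3.22 and 5.97 RPKM in lateral and 1.74, 2.25 and 2.02 RPKM in medial. Its log2 difference was 0.88 ± 0.28 (SE), with an adjusted p of 0.176 by limma and no overlap. Without anterior lateral 3, the highest of these libraries, the log2 difference was 0.55, with an adjusted p of 0.284 by limma, and over all alternatives the adjusted p lay between 0.149 and 1.00.

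In posterior palate all 10 genes were tested between lateral and medial. Over all 10331 genes, 0% were called, and 1.57% were below an unadjusted p of 0.05, as were 3 of the 10, namely *Hrc*, *Car3* and *Slc13a5*. *Hrc* was at 2.98, 1.73 and 2.83 RPKM in lateral and 0.680, 0.350 and 0.663 RPKM in medial, a log2 difference of 1.98 ± 0.37 (SE). *Car3* was at 0.512, 0.319 and 0.653 RPKM in lateral and at 0.0698, 0 and 0.0984 RPKM in medial. *Slc13a5* was at 0.536, 0.430 and 1.15 RPKM in lateral and at 0.188, 0 and 0.114 RPKM in medial. All 3 pairs of groups did not overlap, against 6.64% of all genes tested, and all 3 had an adjusted p of 0.957 by limma, which lay between 0.439 and 1.00 over the alternatives. These 3 genes were under the expression minimum and were added to the fit, while the shares of 1.57% and 6.64% come almost wholly from genes above it. The shares are thus not of genes at like levels. The levels were low, and in reads *Car3* rested on 2 to 8 reads in a lateral library and 0 or 1 in a medial one. Posterior lateral 1 also had the most muscle RNA, with a summed level of 231 RPKM over 13 skeletal muscle markers. Posterior lateral 2 and 3 had sums of 36.0 and 47.2 RPKM, and posterior medial 1.33 to 30.2 RPKM. Of the 3 genes, *Hrc* was highest in posterior lateral 1, and *Car3* and *Slc13a5* in posterior lateral 3. The part of muscle RNA in these values was not tested.

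Between all 12 posterior and all 13 anterior libraries, 0 of the 9 genes tested were called by limma, where 3.32% of all 8615 genes were. Below an unadjusted p of 0.05 were 3 of the 9 and 15.4% of all genes. *Slc20a2* was higher in posterior, at 18.4 ± 4.59 RPKM (SD, n = 12) against 13.8 ± 3.502 RPKM (SD, n = 13), a log2 difference of 0.41 ± 0.14 (SE) with an adjusted p of 0.120. Without anterior oral 3 its adjusted p was 0.0486, and over all alternatives it lay between 0.0486 and 0.888. *Ank* was lower in posterior, at 6.50 ± 2.26 against 8.45 ± 2.71 RPKM (SD), with an adjusted p of 0.288. The adjusted p-values are those of limma. The third of the 3 was *Phospho1*. This contrast pools the compartments, and its posterior side includes the posterior nasal libraries that most likely chose the genes. For the 6 genes highest there the test is not independent of the choice, and nothing is read from it. *Enpp1* was at 5.14 ± 5.68 RPKM in posterior and 10.6 ± 7.64 RPKM in anterior (SD), with no test.

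The 6 posterior nasal genes were compared with 18 genes of osteoblasts and bone matrix, a list drawn up with results of these data known and containing genes that the study names for this compartment, so that it is not independent evidence of a direction. In posterior oral against nasal, 12 of the 18 passed the expression minimum, and limma called 8 of them, all lower in oral, while 0.661% of all genes were called lower. The median log2 difference of the 12 was -1.99, against -0.01 over all genes tested. *Smpd3* and *Panx3* passed the minimum only through posterior nasal, and so had to differ, so the count and the median describe these libraries and support nothing. The 8 were the osteoblast transcription factors *Runx2*, *Sp7* and *Dlx5*, the phosphatase *Alpl*, which breaks down pyrophosphate, the matrix protein *Ibsp*, the sphingomyelinase *Smpd3*, the channel *Panx3* and the osteoblast membrane protein *Ifitm5*. *Sp7* was at 108, 56.5 and 83.6 RPKM in posterior nasal and 7.25, 11.5 and 9.96 RPKM in posterior oral, a log2 difference of -3.08 ± 0.30 (SE, adjusted p = 0.00462 by limma). *Smpd3*, which had to differ, was at 42.0, 20.1 and 27.2 RPKM against 1.97, 1.63 and 2.11 RPKM, a log2 difference of -3.84 given as a description. *Alpl* differed by -1.64 ± 0.23 (SE, adjusted p = 0.0198), from 125, 88.03 and 113 RPKM to 29.9, 41.6 and 32.9 RPKM. Among those not called, the collagens *Col1a1* and *Col1a2* and the matrix protein *Sparc* had differences between -0.33 and -0.25. Of the genes under the minimum, *Bglap* was at 0.823, 0 and 0 RPKM in posterior nasal, *Spp1* at 1.38, 1.72 and 0 RPKM, *Dmp1* at 2.69, 0 and 0.145 RPKM and *Mepe* at 8.22 RPKM in replicate 1 and 0.463 and 0 RPKM in replicates 2 and 3.

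The calls on this list were sensitive to single libraries. Without posterior nasal 1, 2 or 3 there were 2 calls each, without posterior oral 1, 2 or 3 there were 6, 5 and 4, and with sequencing run as a term there were 2. Of the 18 listed genes, 8 had all 3 posterior nasal libraries above the other 22, where nothing is read from the count because the list was drawn up with these results known. In these bulk libraries more cells of a type and more RNA per cell cannot be told apart. Beside these values, the summed level of 8 palate mesenchyme markers was 366 to 436 RPKM in posterior nasal and 454 RPKM or more in every other library, and that of 13 skeletal muscle markers was 33.8 to 75.7 RPKM in posterior nasal and 48.1 to 69.7 RPKM in posterior oral. Of the muscle markers, the actin *Actc1* was at 22.1, 9.08 and 12.1 RPKM in posterior nasal and the factor *Myod1* at 0.799, 0 and 0 RPKM, against 21.7, 18.9 and 12.7 RPKM and 0.0863, 0.314 and 0.146 RPKM in posterior oral. The muscle markers did not share 1 direction. *Casq2*, also a calcium store gene, was higher in nasal without overlap, at 1.76, 0.391 and 0.485 RPKM against 0.324, 0.118 and 0.220 RPKM in oral. The 5 endothelial markers summed to 46.3 to 80.3 RPKM in posterior nasal and 109 to 163 RPKM in posterior oral, and the 7 red cell markers to 424 to 760 and 841 to 1183 RPKM. The sums of 7 cartilage markers, 101 to 156 and 74.8 to 118 RPKM, and of 8 epithelial markers, 27.4 to 47.5 and 19.0 to 28.6 RPKM, overlapped. Limma called 1 gene of each list higher in nasal, *Acan* and *Krt18*. In posterior oral these 2 genes were at most at 1.67 and 2.52 RPKM. They passed the minimum only through posterior nasal, and so had to differ, and nothing is read from the 2 calls. The part of these cell types in the levels of the genes was not tested.

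**Figure D4:**
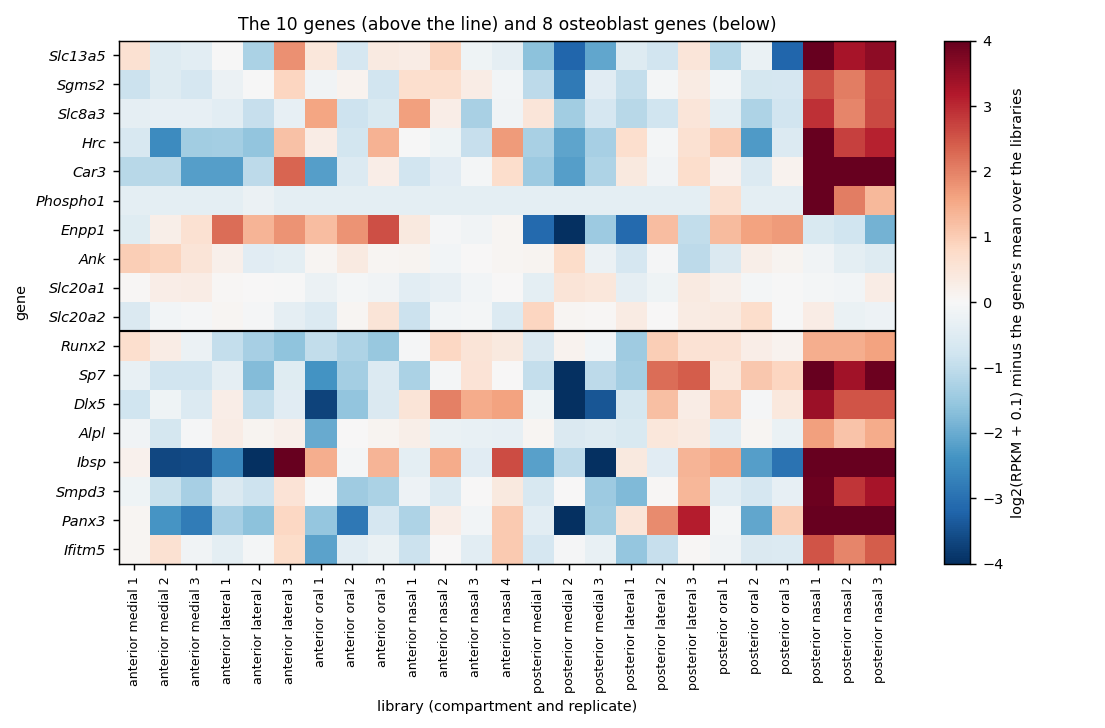
Log2(RPKM + 0.1) minus the mean of the gene over the 25 libraries, for the 10 genes (above the line) and the 8 osteoblast genes called between posterior oral and nasal (below). Columns are libraries, and the colour scale ends at -4 and 4. The last 3 columns, posterior nasal, are red for 6 of the 10 genes and for all 8 osteoblast genes, anterior lateral 3 is red for Ibsp, Car3, Slc13a5 and Hrc, and posterior lateral 2 and 3 are red for Sp7 and Panx3.

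Outside posterior nasal, some osteoblast genes were high in 3 lateral libraries, which were picked after their values were seen and are given as a description. Posterior lateral 2 and 3 held 25.7 and 29.3 RPKM of *Sp7*, above every other library outside posterior nasal, with 69.2 and 52.6 RPKM of *Runx2* and 8.83 and 21.2 RPKM of *Panx3*. In the same libraries *Slc13a5* was at 0.430 and 1.15 RPKM, *Car3* at 0.319 and 0.653 RPKM, *Hrc* at 1.73 and 2.83 RPKM, *Sgms2* at 3.04 and 4.08 RPKM and *Slc8a3* at 2.30 and 5.72 RPKM, and *Phospho1* was listed at 0. In posterior lateral 3 these 5 genes were above 0 and, like *Sp7*, *Runx2* and *Panx3*, below every posterior nasal library. For the 5 genes this had to be so, since they were grouped by posterior nasal standing above all other libraries. Anterior lateral 3 held 93.9 RPKM of *Ibsp*, 24.2 of *Spp1*, 10.5 of *Dmp1* and 5.599 of *Bglap*, which code for proteins of bone matrix, while *Sp7* and *Runx2* were at 3.83 and 11.6 RPKM, and its 2 fellow replicates held 0.734 and 0.170 RPKM of *Ibsp*. This library was the highest outside posterior nasal for *Slc13a5*, *Car3* and *Sgms2*. It came from another sequencing run than the other 2 anterior lateral libraries, and the part of the run was not tested.

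The correlations among the 6 genes were higher with the posterior nasal libraries than without them. Over the 25 libraries the 15 pairwise Pearson correlations of log2(RPKM + 0.1) had a median of 0.765 and a range of 0.598 to 0.866, and over the 22 libraries without posterior nasal a median of 0.348 and a range of -0.134 to 0.675. The points share libraries and depth, and the first set includes the compartment that most likely chose the genes. *Slc13a5* was most like *Sgms2* (0.862), *Dlx3* (0.795) and *Nrp2* (0.784). *Hrc* was most like *Ibsp* (0.885), *Car3* (0.866) and *Gm10629* (0.834), and *Car3* was most like *Panx3* (0.870), *Hrc* and *Cmya5* (0.828). *Phospho1* followed *Smpd3* (0.817), *Itga10* (0.796) and *Plcd1* (0.793), *Slc8a3* followed *Cacna2d2* (0.840), *Itga11* (0.793) and *Dlx3* (0.788), and *Sgms2* followed *Slc13a5*, *Lgi2* (0.860) and *Prr5l* (0.843).

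The other 4 genes had other partners. *Enpp1* was most like *Klk8* (0.909), *Plekha6* (0.887) and *Stat5b* (0.873). *Ank* was most like the keratin *Krt17* (0.769), the desmosome protein *Pkp1* (0.752) and *Oasl2* (0.682). *Slc20a1* followed *B230206F22Rik* (0.810), *Snx14* (0.790) and *Ash2l* (0.761), and *Slc20a2* followed *Sned1* (0.779), *Actr5* (0.752) and *Ccdc101* (0.751). All are Pearson correlations over 25 libraries, the highest among many genes, and are given as a description.

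Relatives of the 10 genes in the same pathways were tested between posterior oral and nasal as well. Of 18 other phosphate and pyrophosphate genes 8 passed the expression minimum, of 33 genes of sodium-calcium exchange and calcium stores 13, of 15 other carbonic anhydrases 5, of 12 genes of citrate and dicarboxylates 8, and of 12 genes of sphingomyelin and phosphocholine 12. Limma called 0 of these 46 genes, where 1.25% of all genes were called, and 4 of the 46 were below an unadjusted p of 0.05. The list medians lay between -0.09 and 0.11 on the log2 scale. *Slc8a1*, the broadly expressed sodium-calcium exchanger, was at 7.34 ± 1.07 RPKM in posterior oral and 3.51 ± 1.04 RPKM in posterior nasal (SD, n = 3 each), opposite in sign to *Slc8a3*, with a log2 difference of 1.07 ± 0.26 (SE) and an adjusted p of 0.126 by limma. *Sgms1*, the sphingomyelin synthase of the Golgi, was at 8.81 ± 1.76 and 6.88 ± 1.26 RPKM (SD), with an adjusted p of 0.986. *Car2* was at 8.04 ± 3.86 and 5.67 ± 3.91 RPKM (SD), with an adjusted p of 0.999. These 3 relatives were named after their values were seen.

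Limma called none of the 2 most abundant genes of each of these 5 lists between posterior oral and nasal. Citrate synthase, *Cs*, was at 82.0 ± 9.49 and 82.2 ± 4.06 RPKM, and the mitochondrial phosphate carrier *Slc25a3* at 47.7 ± 4.196 and 49.97 ± 4.75 RPKM (SD, n = 3 each). The calcium-binding chaperones *Calr* and *Hspa5* were at 139 ± 26.5 and 125 ± 27.0 RPKM in oral and 146 ± 8.999 and 144 ± 17.7 RPKM in nasal. The other 5 not yet given, *Idh2*, *Ppa1*, *Smpd4*, *Etnk1* and *Car11*, had log2 differences of -0.29, -0.26, 0.19, -0.35 and 0.05, with standard errors from 0.21 to 0.33. *Slc34a1*, *Slc34a2* and *Slc34a3*, the sodium-phosphate carriers of kidney and gut, had compartment means below 0.6 RPKM, far under those of *Slc20a1* and *Slc20a2*. *Slc13a1*, *Slc13a2* and *Slc13a3*, relatives of *Slc13a5*, had compartment means below 0.7 RPKM. Another relative, *Slc13a4*, was at 1.34 ± 0.447 RPKM in posterior oral and 0.669 ± 0.311 RPKM in posterior nasal (SD, n = 3 each).

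In the other contrasts limma called few genes of these lists. In anterior palate *Runx2* was lower in lateral than in medial, at 14.6 and 43.3 RPKM (log2 difference -1.54 ± 0.25 SE, adjusted p = 0.0251). *Slc24a2*, a potassium-dependent sodium-calcium exchanger, was called lower in lateral too, at 0.646 and 9.15 RPKM (log2 difference -3.68). *Slc24a2* passed the minimum only through anterior medial, and so had to differ, and nothing is read from its call. Without anterior medial 2 there were 0 calls by limma on the lists in this contrast, and without anterior lateral 2 or 3 or anterior medial 1 or 3 there was 1 such call. *Col1a1* was higher in posterior than in anterior libraries, at 211 and 150 RPKM (0.46 ± 0.12 SE, adjusted p = 0.0319), a call lost without any 1 of 8 libraries, namely posterior medial 1, posterior lateral 1, posterior nasal 1, anterior medial 2 and 3, anterior lateral 1 and 2 and anterior oral 2. In anterior oral against nasal limma called 0 of 56 genes of the lists, with 5 below an unadjusted p of 0.05, and in posterior lateral against medial 0 of 52, with 3 below it.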

How the data were processed

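RNA of laser captured compartments was amplified (NuGEN Ovation) and tagmented (Nextera), and 25 libraries were sequenced. The deposited values are RPKM of 37406 genes, which the authors made in GeneSpring from single-end reads of 50 bases after removal of duplicate reads. The submitters' processing notes name TopHat and mm9. 1 column whose header lacks the word RPKM was read as RPKM. Read counts were not used here. Depth was inferred from the smallest steps between values (597 of 600 ordered pairs of libraries agreed), and intervals from it cover counting error only.

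Groups came from the sample labels and sequencing runs from alignment names. Contrasts of 2 compartments used limma 3.58.1 (R 4.3.3) on log2(RPKM + 0.1), with Benjamini-Hochberg adjustment over all genes that reached 5 RPKM in 3 or more of the libraries compared. Posterior against anterior required 10 RPKM in 6 or more. Genes of the set under the minimum were added to the fit. Of the 10, 4 passed it in anterior oral against nasal and 9 in posterior oral against nasal. In anterior lateral against medial 4 passed, in posterior lateral against medial 3, and in posterior against anterior 3. Shares over all genes are thus not of genes at like levels. A gene was called at an adjusted p under 0.05. Fold changes on this scale understate changes of low genes. The test was tried on simulated data. The labels do not say whether replicates are separate embryos, so p-values measure only the spread between these samples.

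The 10 genes, the gene lists and the tests were chosen with earlier results of these data known. Genes named are the 10, the called genes of each list, the 2 most abundant of each list and the 3 best correlated with each of the 10 (among genes that reached 5 RPKM in 3 libraries or more), and any other is said to be chosen later. *Bglap*, *Spp1*, *Dmp1*, *Mepe*, *Myod1*, *Actc1*, *Casq2*, *Acan*, *Krt14*, *Krt18*, *Krt8* and the *Slc34a* and *Slc13a* relatives were named after their values were seen.

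Deviations from the group means of same-numbered anterior oral and nasal libraries correlated at 0.239, 0.215 and 0.130. Libraries of unlike number were not compared, so these values cannot tell whether the numbers pair the libraries. Anterior oral 2 and 3 shared their sequencing runs with anterior nasal 3 and 4. The fit with the replicate block is an alternative. In posterior oral and nasal the correlations were 0.218, -0.0755 and 0.418. In the other contrasts at least 1 correlation was under 0.1. Tables and plots used Python 3.11.15, pandas 2.3.3 and matplotlib 3.10.9. 1 gene of the osteoblast list is not reported here by name.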

Additional observations from a re-analysis of the deposited data

Results flagged for a closer look

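*Hrc* in anterior nasal was flagged because 1 library lay far from the other 3. Anterior nasal 4 was at 6.11 RPKM, and the others were at 1.79, 1.62 and 0.912 RPKM, so the gap to the nearest was 0.831 of the whole range, above Dixon's 95% critical value for 4 samples. Chance alone flags about 1 in 20 groups. Of the 8 compartments, anterior nasal, with 4 libraries, was tested in this way, and those of 3 libraries were not. The same library was not the highest of its group for *Slc13a5* or *Sgms2*, and was the highest for *Car3*, at 0.654 RPKM, and for *Ibsp*, at 31.0 RPKM. The cause was not tested.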

How the results depend on the processing

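The number of the 10 genes called was 0 in every contrast tested and stayed 0 under every alternative in anterior oral against nasal, anterior lateral against medial and posterior lateral against medial. In posterior against anterior it became 1 with sequencing run as a term (*Phospho1*, most likely chosen for its posterior nasal level, so that nothing is read from it) and was 0 to 1 when single libraries were left out (1 without anterior oral 3, *Slc20a2*). The 7 genes without overlap in posterior oral against nasal were 6 under quantile normalization and 7 to 8 when single libraries were left out. Leaving out a library cannot make groups overlap, so that count could not fall below 7. The 6 genes with posterior nasal above all others were 5 after centring (without *Slc8a3*), 5 after quantile normalization (without *Phospho1*) and 6 without any 1 library, alternatives chosen after seeing the data. The count without any 1 library likewise could not fall below 6, so nothing is read from it. Fitting a replicate block changed no call on the 10 genes. It left 0 calls in anterior oral against nasal and gave 6 in place of 8 calls on the functional lists in posterior oral against nasal. Whether the replicate numbers pair the libraries is not known. Of the calls on those lists, the 8 in posterior oral against nasal were 1 with no expression minimum, 5 with a minimum of 1 RPKM, 2 with run as a term, 3 with all 25 libraries in 1 fit and 2 to 6 when single libraries were left out. The 2 in anterior lateral against medial were 1, 1, 0 and 1 under the same 4 alternatives, in that order, and 0 to 2 when single libraries were left out. The 1 in posterior against anterior was 0 after centring, 3 with no minimum, 4 with a minimum of 1 RPKM, 3 with compartment type as a term and 0 to 2 when single libraries were left out. The cause of these shifts was not tested. The log2 differences of low genes moved with the constant added, as for *Sgms2* (-2.52 with 1 RPKM) and *Car3* (-2.82 with 1 RPKM). At the lowest depth 1 read on a gene of 2000 bases was worth 0.305 RPKM, which limits genes as low as *Phospho1*, *Car3* and *Slc13a5* were outside posterior nasal. Only *Car3* came in whole steps of a read, so the reads behind *Phospho1* and *Slc13a5* were not worked out.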
